A study of Homo sapiens with 8 samples.

Results

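miR-361 is a microRNA hairpin that gives 2 mature products, miR-361-5p from its 5′ side and miR-361-3p from its 3′ side. The assays were chosen by name and are 2 of the 754 on the TaqMan cards, miR-361-5p on card A and miR-361-3p on card B. The hairpin was picked because earlier results of these data showed both arms lower after TGF-β1, so that difference is described here and not tested. The data come from A549, LC2/ad, PC3 and PC9, human lines labelled as lung adenocarcinoma, the last of which carries an activating EGFR mutation. PC3 is a lung line by its labels, although a prostate line bears the same name. All 4 lines were kept in RPMI medium with fetal bovine serum, and each gave 1 untreated control and 1 culture given TGF-β1 at 5 ng/ml for 72 h. TGF-β1 is a secreted factor under which epithelial cells can take on mesenchymal traits. No condition was repeated within a line, so the lines are the only replicates (n = 4), and the values of a single line carry no replicate error.

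A microRNA hairpin is cut from a longer transcript, first in the nucleus and then by Dicer, which leaves a duplex of both arms. Usually 1 arm is loaded into an Argonaute protein and pairs with target transcripts through its seed, and the other is degraded, although both can be kept. miR-361 is described as lying in an intron of CHM, a gene for a Rab escort protein whose loss causes choroideremia, and miR-361-5p is known for acting on the transcript of VEGFA, an angiogenic growth factor.

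Both arms were found in RefSeq's microRNA table (GRCh38.p14). They are shown because their seeds, bases 2 to 8 in capitals, decide what each arm can pair with. miR-361-5p lies at chrX:85903681-85903702 and miR-361-3p at chrX:85903641-85903663, both on the minus strand and within the span of CHM, chrX:85861180-86047558.
miR-361-5p: uUAUCAGAaucuccagggguac
miR-361-3p: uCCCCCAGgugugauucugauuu
The seeds differ, and 0 others of the 2370 mature names listed there share either of them, so neither arm has a seed family in it. The hairpin of 72 bases is shown to place the arms, in capitals.
MIR361: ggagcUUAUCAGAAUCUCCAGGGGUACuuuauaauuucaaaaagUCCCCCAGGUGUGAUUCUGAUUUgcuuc
In the structure predicted by RNAfold, with a free energy of -31.4 kcal/mol, 16 bases of the 5p arm pair with the 3p arm, 6 of them seed bases. The longest unbroken helix between the arms has 9 pairs, and 17 bases separate the arms at the loop.

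The raw unit is the threshold cycle (Ct), the PCR cycle at which the signal crosses a threshold, so 1 cycle more stands for about a halving. The files list 40 where nothing amplified, and a Ct above 35 counted as not detected. Between 225 and 281 assays were detected per sample, 372 in at least 1 sample and 168 in all 8. As a check of the labelled cell type, the epithelial markers miR-200c and miR-375 were detected in all 8 samples, and 4 to 8 of the 8 markers of that list per sample. The liver marker miR-122 was at 40 throughout, as were 3 of 6 blood markers (miR-142-5p, miR-144 and miR-451) and 1 of 4 muscle markers (miR-133b). Of the blood list 0 to 2 were detected per sample, miR-142-3p in 4 samples and miR-223 in 3, and of the muscle list only miR-133a in 1, the treated PC3 sample. Of 3 nerve markers, miR-9 and miR-128 were detected in all 8 samples, miR-9 from Ct 24.3, and miR-124 in 1. Of 5 fibroblast and smooth muscle markers, 0 to 3 were detected per sample, and miR-214 only in the PC3 samples. Markers of that list were detected after TGF-β1 but not before in PC9 (2 against 0). LC2/ad had more of them after it (3 against 1), with 0 in both A549 samples and 3 in both PC3 samples. In PC9 miR-199a-3p of that list moved the other way, from Ct 35.14 to 40, both past the limit. The epithelial count stayed at 8 in PC9, rose from 5 to 6 in LC2/ad, and fell in PC3 (5 to 4) and A549 (7 to 6). Treated samples had a lower Ct of miR-200a, miR-200b, miR-203 and miR-429 in every line but PC3. They had a higher Ct of miR-375 in every line. miR-126, a marker of endothelium, had a Ct between 23.7 and 25.9 in every sample. The part of these markers in the changes described below was not tested.

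miR-361-5p was detected in all 8 samples. Its Ct in PC3 was 29.7 in the control and 30.6 after TGF-β1, in PC9 31.8 and 32.2, in LC2/ad 31.7 and 32.4, and in A549 31.3 and 31.98. The treated sample of each line had the higher Ct, while the groups overlapped, since both PC3 values lay below those of all other samples. The Ct difference within a line was 0.94 in PC3, 0.66 in A549, 0.64 in LC2/ad and 0.47 in PC9. A higher raw Ct in all 4 lines was seen for 13 (7.74%) of the 168 assays detected in every sample. For scale, the U6 wells, 4 on each card, had a median SD of 0.29 cycles and a highest SD of 0.65. This is a spread between wells within a sample, for another RNA, and holds no spread between cultures.

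miR-361-3p was detected in 4 of 4 control samples and in 1 of 4 treated samples. Its Ct in A549 was 32.1 in the control and 33.3 after TGF-β1, in PC9 34.8 and 36.1, in LC2/ad 32.7 and 35.6, and in PC3 34.2 and 40. Within each line the treated sample had the higher Ct, and across lines the groups overlapped only through the treated A549 sample. The PC9 control lay just inside the limit of 35 and the treated LC2/ad sample just outside it. Bulk RNA cannot tell fewer cells with the microRNA from less of it per cell.

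**Figure D1:**
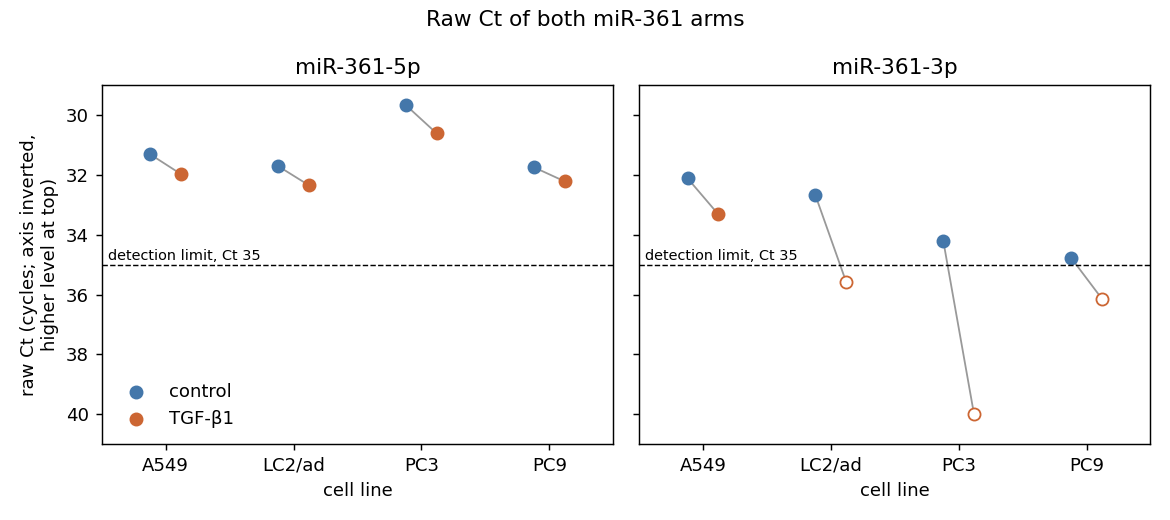
Raw Ct in cycles of miR-361-5p (left) and miR-361-3p (right) in the control (blue) and TGF-β1 (orange) sample of each line, on an inverted axis with high levels at the top; the dashed line is the limit of Ct 35 and open points lie beyond it. Each treated point sits under its control, and only A549 keeps miR-361-3p inside the limit after TGF-β1.

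Loss of detection was compared with that of other assays. In 3 lines, all but A549, only the control sample had miR-361-3p at Ct 35 or below, and it was the 1 assay of 372 (0.269%) for which this held in 3 or more lines. For 12 of 372 (3.23%) it held in 2 or more. The reverse, detection only after TGF-β1 in 3 lines, also held for 1 of 372 assays (0.269%), miR-190, named after its values were seen. The control of miR-361-3p was above Ct 32 in every line, a range where detection was often lost. Of the assays with a control Ct above 32 and up to 35, 43% were not detected after TGF-β1 in LC2/ad, 26.5% in PC3, 24.7% in A549 and 24.7% in PC9. In the opposite direction, the shares of assays in that range after TGF-β1 that the control did not detect were 24.7%, 24.7%, 34.7% and 31.7%. The rule that chose the hairpin used this contrast, so nothing is read from its rank.

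To compare samples, each Ct was set against the mean Ct of the assays of its card that were detected in all 8 samples, and the log2 level is that mean minus the Ct. The level of miR-361-5p in PC3 was -2.25 in the control and -3.19 after TGF-β1, in PC9 -2.60 and -3.31, in LC2/ad -4.23 and -4.47, and in A549 -3.46 and -4.36. On this scale miR-361-5p was lower after TGF-β1 in 4 of 4 lines, by 1.92-fold in PC3, 1.87-fold in A549, 1.63-fold in PC9 and 1.18-fold in LC2/ad, although LC2/ad turned with the card median as normalizer and PC9 with U6. A value under 0 was common, at 56% of the assays detected in both samples in PC3, 59.1% in A549, 56.9% in PC9 and 51.5% in LC2/ad. The mean log2 change was -0.70 (SD 0.32, n = 4 lines). Of the 250 assays that gave a difference in 3 or more lines, 6.4% had a mean at or under this value. Of the 204 assays with a value in all 4 lines, 29 (14.2%) were lower in each and 14 (6.86%) higher in each.

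In PC3 the change of miR-361-5p, -0.94, was among the lowest, with 4.8% of the assays detected in both PC3 samples at or under it. The corresponding share was 9.57% in A549, 14.2% in PC9 and 36.4% in LC2/ad, where the change was -0.24. None reached 2-fold, which 4.4% of assays did on the lower side in PC3, 7.39% in A549, 6.37% in PC9 and 9.62% in LC2/ad.

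The log2 level of miR-361-3p was -2.85 in the A549 control and -4.47 after TGF-β1, a difference of -1.62 or 3.08-fold, with 2.17% of the assays detected in both A549 samples at or under it. In the other lines the treated sample is known only to lie under its detection limit, so the difference is a bound. The control level was -5.72 in PC3, -4.99 in PC9 and -3.99 in LC2/ad, against limits of -6.44, -5.54 and -6.06 in the treated samples. These make miR-361-3p at least 4.21-fold lower in LC2/ad, at least 1.65-fold in PC3 and at least 1.46-fold in PC9, but with RNU48 or with all control RNAs the PC9 limit lay above 0 and set no direction. The mean with bounds at their limit was -1.24 (SD 0.73, n = 4), at or under which lay 0.8% of the 250 assays. If Ct values up to 38 were kept, LC2/ad had 6.29-fold and PC9 3.22-fold lower levels, and PC3 at least 13.2-fold.

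In the authors' deposited table, scaled to U6, treated over control for miR-361-5p was 0.608 in PC3, 0.642 in A549, 0.667 in LC2/ad and 1.15 in PC9. The authors' deposited table gives miR-361-3p folds of 0.0172, 0.330, 0.162 and 0.450 in the same order, all but that of A549 resting on treated samples above Ct 35. So miR-361-5p in PC9 was higher, not lower, in the deposited values. On card A of PC9 the U6 Ct was 0.67 higher after TGF-β1, RNU44 0.27 and RNU48 0.36 higher, and the mean of the microRNAs 0.23 lower. The Ct of miR-361-5p in PC9 was 0.47 higher, more than RNU44 and RNU48 and less than U6.

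**Figure D2:**
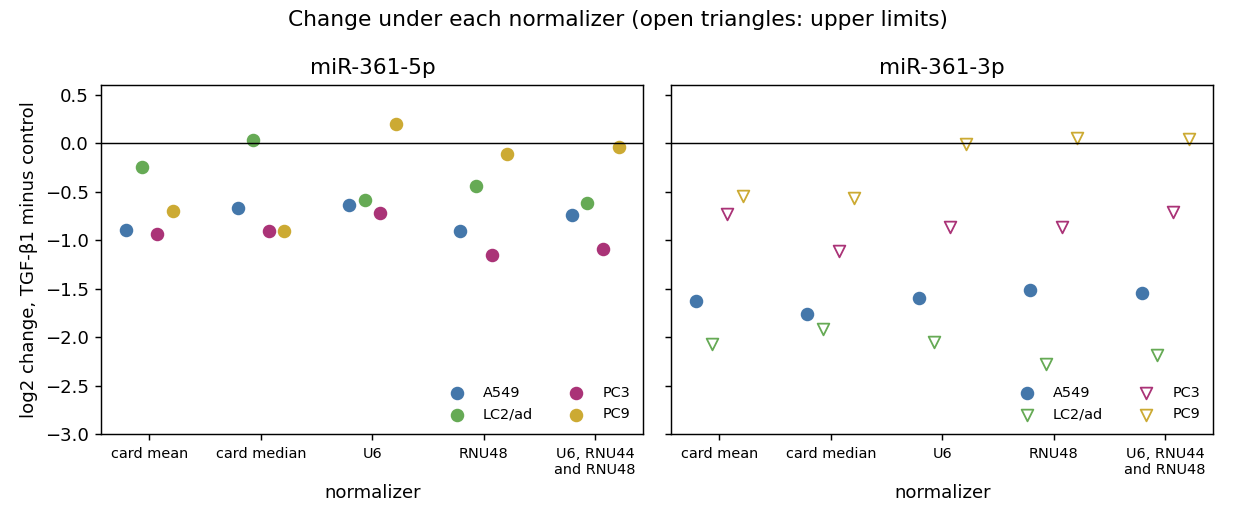
Log2 change, TGF-β1 minus control, of both arms in each line under 5 normalizers, with filled circles for differences between detected values and open triangles for upper limits. A549 and PC3 stay under 0 throughout, while miR-361-5p reaches 0.20 in PC9 with U6 and 0.03 in LC2/ad with the card median, and the PC9 limit of miR-361-3p reaches 0.05 with RNU48.

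Over the 5 normalizers the change of miR-361-5p in A549 ranged from -0.64 with U6 to -0.91 with RNU48, and in PC3 from -0.72 with U6 to -1.15 with RNU48. In LC2/ad it was -0.62 with all control RNAs, -0.59 with U6 and -0.44 with RNU48, but 0.03 with the card median. In PC9 it was -0.91 with the card median, -0.11 with RNU48, -0.04 with all control RNAs and 0.20 with U6. The change in A549 and PC3 was thus negative under all 5, and its sign in LC2/ad and PC9 was not. U6 moved the median of all 250 assays from -0.08 to 0.13.

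No assay was past an adjusted p of 0.05 over the lines, 0 of 250 (0%), in limma's test of the within-line differences with Benjamini-Hochberg adjustment, and 30 (12%) had an unadjusted p under 0.05. Since this contrast chose the hairpin, no p is given for its arms.

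The level of each arm in the 4 lines, averaged over control and treated samples, is a different quantity from the change. For miR-361-5p the order was PC3 (-2.72), PC9 (-2.96), A549 (-3.91) and LC2/ad (-4.35), and the lines differed (limma F test of line in a model with treatment, adjusted p = 0.00779, adjusted over 318 assays). With a Ct limit of 32 they did not pass (adjusted p = 0.456, limma). The common limit of card A then lay above every level of miR-361-5p but those of the PC3 control (-2.25) and the PC9 control (-2.60). All other samples were set to that limit, so this setting cannot compare their levels. A difference between lines was common in the main test, with 191 of the 318 (60.1%) past the threshold. Over the 6 pairs of lines, with p-values adjusted over all assays and pairs, PC3 lay above A549 by 1.18 (95% interval 0.56 to 1.81, adjusted p = 0.0170, limma) and above LC2/ad by 1.63 (1.01 to 2.25, adjusted p = 0.00587, limma). PC9 lay above A549 by 0.95 (0.33 to 1.57, adjusted p = 0.0344, limma) and above LC2/ad by 1.40 (0.78 to 2.02, adjusted p = 0.00972, limma). The neighbours in the order did not pass, with PC3 above PC9 by 0.23 (interval -0.39 to 0.86) and A549 above LC2/ad by 0.45 (interval -0.17 to 1.07). Each line has only 2 samples here, and the spread is what remains after a shared treatment effect. The summed level of the epithelial markers was highest in PC9 (7.13 in the control and 6.97 after TGF-β1) and PC3 (2.35 and 1.99). A549 had -0.92 and -0.34 and LC2/ad had -2.19 and -1.32. Fewer of the 8 markers were detected in PC3 (5 and 4) than in A549 (7 and 6). In the PC3 control miR-200c (Ct 25.2 against 31.2), miR-141 and miR-375 had a lower Ct than in the A549 control. There miR-200a (40 against 32.2), miR-200b, miR-203 and miR-429 had a higher one, and miR-205 was at 40 in both. Fibroblast and smooth muscle markers summed to 3.02 and 3.12 in PC3, and their part and that of the epithelial markers in this order was not tested.

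miR-361-3p had another order. With 1 common limit for all samples of card B, at -5.21, its mean was -3.66 in A549, -4.60 in LC2/ad, -5.10 in PC9 and -5.21 in PC3, where both samples lay at the limit. The lines did not pass the test (limma F test, adjusted p = 0.0929). With each sample's own limit the adjusted p was 0.0194, and with Ct values up to 38 it was 0.0104, both in limma. Neither arm is called the more abundant, since assays differ in efficiency.

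The difference between the arms can be compared across lines as far as the assays differ by a constant Ct offset, which cancels. A difference in amplification efficiency need not cancel. The raw gaps also hold the difference between the cards, which varied by sample. The card mean Ct was 27.9 on card A and 29.3 on card B in the A549 control, and 29.1 and 29.8 in the PC9 control. The Ct of miR-361-3p exceeded that of miR-361-5p by 4.54 cycles in the PC3 control and 3.03 in the PC9 control, but by 0.98 in the LC2/ad control and 0.80 in the A549 control. After TGF-β1 the gap was 9.38 in PC3, 3.92 in PC9, 3.23 in LC2/ad and 1.34 in A549, all but the last resting on a Ct above 35. The gap was widest in PC3 in both groups and narrowest in A549, and the control gaps of A549 and LC2/ad did not reach those of PC3 and PC9.

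On the normalized scale, 5p minus 3p with the common limit averaged 2.49 in PC3, 2.15 in PC9, 0.24 in LC2/ad and -0.25 in A549. With values at the limit entered as such, this arm balance differed between lines (limma F test over 64 hairpins with both arms measured, adjusted p = 0.0106). This test was added after the values were seen. PC3 exceeded A549 by 2.74 (95% interval 1.44 to 4.04, adjusted p = 0.0101, limma) and LC2/ad by 2.25 (0.94 to 3.55, adjusted p = 0.0224, limma). PC9 exceeded A549 by 2.39 (1.09 to 3.69, adjusted p = 0.0175, limma) and LC2/ad by 1.90 (0.60 to 3.20, adjusted p = 0.0384, limma). PC9 over LC2/ad did not pass with each sample's own limit, at 1.64 (0.27 to 3.01, adjusted p = 0.0822, limma). With Ct values up to 38 it did not pass either, at 1.92 (0.49 to 3.35, adjusted p = 0.0831, limma). With no limit PC9 over A549 did not pass as well (adjusted p = 0.0945, limma), while PC3 over A549 and over LC2/ad passed under all 3. The intervals for LC2/ad over A549, -0.81 to 1.79, and for PC3 over PC9, -0.96 to 1.64, included 0. Of the 64 hairpins 34 (53.1%) passed, so an arm balance that varies by line is not particular to miR-361, which ranked at place 25 by p. Values at the limit make the balances of LC2/ad, PC3 and PC9 lower limits, so the differences among these 3 lines have no bound in either direction. The intervals and p-values of PC3 and PC9 over LC2/ad therefore describe values at limits and support no call. Those over A549 also rest on lower limits, and their spread holds nothing of what lies beyond the limit. In the treated LC2/ad sample the balance was 0.74 with the common limit and at least 1.58 with the sample's own.

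**Figure D3:**
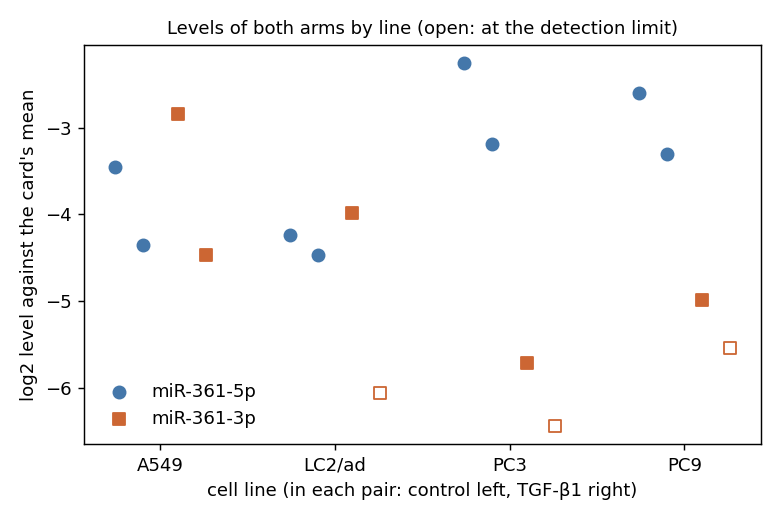
Log2 level against the card's mean of miR-361-5p (circles) and miR-361-3p (squares) in each line, control left and TGF-β1 right in each pair, with open symbols for samples at their own detection limit. miR-361-5p is highest in PC3 and PC9, and miR-361-3p in A549.

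Other hairpins with both arms on the cards give the background for 2 arms being lower together. Both arms were lower in 15 of 55 hairpins with values in PC3 (27.3%), 19 of 51 in PC9 (37.3%), 23 of 58 in LC2/ad (39.7%) and 22 of 51 in A549 (43.1%). Over the 48 hairpins with values in 3 or more lines, both arms were lower in every such line for 4 (8.33%) and higher in every line for 1 (2.08%). The 4 were miR-361, miR-192, miR-625 and miR-532. miR-192, a microRNA linked to p53 and to TGF-β in kidney, had mean changes of -0.32 for its guide and -1.04 for miR-192#, where # marks the passenger strand. miR-625 had -0.57 and its passenger strand -0.56. miR-532, a hairpin within CLCN5, had -0.24 for the 5p and -0.32 for the 3p arm. miR-361 had the lowest mean of both arms of the 48, at -0.97, a position that its selection favoured and that rests on 3 bounds.

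miR-361 lies on chromosome X, so the other X-linked microRNAs were taken as a list. RefSeq's table placed 45 of the 52 names of the list on X and 7 were not found in it. Of 71 other assays of the list, 41 were detected in at least 1 sample and 24 gave a difference in 3 or more lines. In limma's test 0 rose and 0 fell past an adjusted p of 0.05. Their mean changes had a median of -0.24, against -0.08 for all 250 assays, and 20 of 24 were negative (83.3%), against 153 of 250 (61.2%). With U6 as the normalizer 10 of 24 (41.7%) were negative, against 90 of 250 (36.0%). The lowest were miR-503 at -0.83, a bound in all 3 lines with a value and in PC9 detected only after TGF-β1, miR-652 at -0.65 (SE 0.18, adjusted p = 0.290, limma, n = 4) and miR-20b, of the miR-17 family, at -0.45 (SE 0.17, adjusted p = 0.388, limma, n = 4). The highest were miR-98, of the let-7 family, at 0.37, miR-502-3p at 0.31 and miR-505# at 0.24, none past the threshold. With the card mean as normalizer, 7 of 8 tested assays of the CLCN5 group had a negative mean, with a median of -0.21. So had both tested assays of the group around miR-424. These include miR-503, whose bounds run in opposite directions between lines, so its mean sets no direction.

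miR-361-5p is one of several microRNAs described as acting on VEGFA, and the others were taken as a second list. Of 14 other assays, 12 gave a difference in 3 or more lines, and 0 rose and 0 fell past an adjusted p of 0.05 in limma. Their median was -0.05, against -0.08 for all assays, and 8 of 12 were negative, against 153 of 250 (61.2%) of all assays. miR-503 and miR-20b, also members of the X-linked list, and miR-93, of the miR-17 family, had the lowest means, the last at -0.42. miR-15a had the highest, at 1.34 (SE 0.58, adjusted p = 0.416, limma), with 2.72 in PC9, 2.35 in A549, 0.88 in LC2/ad and -0.59 in PC3. miR-16, of the same list, had -0.06.

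The assays whose levels ran most like those of miR-361-5p were found by Pearson correlation over the 8 samples among 167 assays detected in all. They were miR-30a-3p (r = 0.92), miR-191 (r = 0.91), miR-30c (r = 0.90), miR-454 (r = 0.90) and miR-375 (r = 0.89). The 8 points come in pairs from 4 lines and share their card's normalizer, so they are not independent. The treated samples entered the correlation, so the changes of these 5 are not independent of how they were found, and nothing is read from them. After TGF-β1 the mean changes of these 5 were -0.44, -0.41, -0.26, -0.26 and -0.68. Over the 4 lines, their changes correlated with that of miR-361-5p at -0.52, 0.41, 0.57, -0.40 and 0.35 in the same order. miR-30a-3p, miR-191 and miR-375, a neuroendocrine microRNA, were lower in 4 of 4 lines, and miR-30c and miR-454 in 3. miR-361-3p was detected in only 5 samples and was given no such comparison.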

How the data were processed

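MicroRNAs were measured in 8 samples by reverse transcription and TaqMan PCR over 40 cycles, per the labels' protocols. The deposited Ct values are a score with no normalization, and the deposited ratio and fold were scaled by the authors to U6 of the card and calibrated to the control of A549, per the file headers and a recomputation (largest log2 difference 4.07e-06). The instrument software is not given in the sources used here. Groups follow the treatment characteristic, since the source names word the exposure the other way round. The control wells of each card were identified by that recomputation.

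A Ct above 35 was set to 35, and each sample was scaled to the mean Ct of 117 assays on card A and 51 on card B. limma 3.58.1 (R 4.3.3) tested within-line differences and, in a model of line and treatment, levels between lines, after a check on simulated data. For levels, 1 limit per card was set for all samples and assays constant at it were left out. The cell line pairs the samples: over 168 assays, deviations from the group means correlated within a line at 0.94 in PC3, 0.92 in A549, 0.92 in PC9 and 0.81 in LC2/ad. The highest correlation with another line was -0.13 for PC3 and PC9 but 0.79 for A549 and LC2/ad, close to that of LC2/ad with itself. Structure came from RNAfold 2.7.2. The members, lists and tests were chosen with earlier results of these data known. Named microRNAs were the 2 arms, the 5 assays most like miR-361-5p, the 3 lowest and 3 highest of the X-linked list, up to 4 of the VEGFA list, and hairpins with both arms lower in every line.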

Additional observations from a re-analysis of the deposited data

How the results depend on the processing

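Other normalizers, Ct limits of 32 and 38, no limit, no filter and leaving out each line were tried. The mean change of both arms stayed negative under every setting that gave a value, from -0.61 to -0.85 for miR-361-5p and from -0.97 to -1.47 for miR-361-3p when a line was left out. The mean of miR-361-5p was -0.44 with U6 and in the deposited fold and -0.55 with a Ct limit of 32. The mean of miR-361-3p was -2.42 with a Ct limit of 38, -2.92 with none and -2.81 as log2 of the deposited fold, because treated samples above Ct 35 then enter at their listed Ct. With a Ct limit of 32 miR-361-3p gave no value. Of 32 alternative values of miR-361-5p in single lines 4 were positive: 0.031 in LC2/ad with the median normalizer, 0.11 there with a Ct limit of 32, an upper limit, and 0.20 in PC9 with U6 and in the deposited fold. Of 28 for miR-361-3p 2 were positive, both upper limits in PC9, at 0.05 with RNU48 and 0.043 with U6, RNU44 and RNU48 together. The number of assays past the threshold after TGF-β1 was 2 with U6 and 0 otherwise (limma). Without the line as a replicate block it was 0, with 0 assays at an unadjusted p under 0.05. Assays differing between lines numbered 98 without PC3 and up to 193 without another line. The adjusted p of miR-361-5p between lines lay between 0.00779 and 0.0455 except with a Ct limit of 32 (0.456), and that of the arm balance between 0.00417 and 0.0346. Depth is limiting for miR-361-3p, which lies within 3 cycles of the limit in every control sample.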

Other observations

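Of the 168 assays detected in all 8 samples, 13 (7.74%) had a higher raw Ct after TGF-β1 in all 4 lines, without any normalizer. The smallest rise over the lines was 0.47 cycles for miR-361-5p, 0.21 for miR-625# and 0.20 for miR-20b, and under that for the other 10. These 13 include 4 of the 20 X-linked assays detected in all samples, which are miR-361-5p, miR-20b, miR-374b and miR-652. Since this contrast chose miR-361-5p, nothing is read from its place among the 13 or from its part in the 4. The 13 also include miR-30a-3p, miR-30c, miR-191 and miR-375, which are among the assays most like miR-361-5p in level. That likeness was ranked with the treated samples included, so the overlap is not independent of it and was not tested.

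Besides miR-361-3p, 11 assays were detected only in the control sample in 2 lines, among them the X-linked miR-503 and miR-505 and miR-191#, the passenger strand of miR-191. The Ct of miR-190, the mirror case, in A549 was 35.6 in the control and 33.7 after TGF-β1, in PC9 40 and 39.03, in PC3 35.6 and 34.3, and in LC2/ad 35.4 and 34.4. Its control values lay within 1 cycle above the limit in A549, LC2/ad and PC3.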
